A study of Mus musculus with 18 samples.

Results

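The genes described here are 50 mouse genes of mitosis, covering kinesin motors, spindle microtubule proteins, mitotic kinases, the chromosomal passenger complex, cytokinesis, mitotic chromosome structure, and ubiquitin transfer and nuclear import. They were taken by gene symbol, as every probe set whose only platform symbol was one of these genes or a current synonym of it. This gave 119 of the 34945 probe sets with 1 symbol and 50 of 18193 genes. A single probe set per gene was tested, the brightest on average. Genes whose mean log2(intensity + 16) was at or below the 25th percentile over probe sets were left out, a limit that corresponds to an intensity of 23.5. Of the 50 genes 49 were tested, among 15005 genes in all. The exception was Kif14, a kinesin of cytokinesis, which read 11.9, 12.9 and 14.7 intensity units in -NRAS tumours, 13.4, 14.2 and 15.95 in MEKi tumours and 13.8, 14.9 and 17.1 in vehicle tumours (lowest, median and highest).

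Expression was read on 1 one-colour Affymetrix array for each of 18 tumours that grew from a single mouse melanoma cell line, iNRAS-475, injected into skin of nude hosts (mice without mature T cells). As background on the published model, the line carries an NRAS oncogene that is expressed only under doxycycline, and all mice drank water with 2 mg/ml doxycycline for 6 weeks, until tumours measured 200 to 500 mm3. In the -NRAS arm (6 tumours) doxycycline was then withdrawn for 4 days, in the MEKi arm (6 tumours) 100 mg/kg of AZD6244 (selumetinib, an inhibitor of the kinases MEK1 and MEK2 below RAS) was given for 4 days, and the vehicle arm (6 tumours) received vehicle. The design compares switching off NRAS with inhibiting its MEK branch. Doxycycline was withdrawn only in the -NRAS arm, so an effect of the drug itself and of NRAS loss cannot be told apart. The tumours are distinct, but the sources used here do not give which shared a mouse or a batch.

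To divide, a cell replicates its chromosomes, compacts them with condensin and topoisomerase II, and builds a spindle of microtubules that kinesin motors and microtubule-binding proteins arrange into opposing poles. Aurora, Polo-like and NIMA-related kinases time these steps, the chromosomal passenger complex checks attachment and marks the site of division, and an actin-myosin ring with the central spindle then cuts the cell. Most of these transcripts are made in G2 phase and mitosis and are low in resting cells. In human and mouse cells many of their promoters hold a short element named CHR (cell cycle genes homology region), through which the MuvB complex silences them in quiescence and, together with the factors B-MYB and FOXM1, activates them before mitosis.

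The median intensity of an array was 72.3 to 78.5, and arrays within an arm correlated at 0.987 to 0.997. Dusp6, a phosphatase that ERK signalling induces, read 786, 1117 and 1667 in -NRAS tumours, 1941, 2534 and 2807 in MEKi tumours and 7412, 8337 and 9135 in vehicle tumours, with no overlap between any arms. All 10 tested genes of MAPK output fell in both treated arms, against 27.5% of all genes in -NRAS tumours and 20.9% in MEKi tumours. Between -NRAS and MEKi tumours 9 of the 10 were lower in -NRAS tumours and 1 was higher (median log2 change -1.30). The 3 mouse Nras probe sets fell by 0.19 to 0.43 on the log2 scale in -NRAS tumours and by 0.23 to 0.31 in MEKi tumours relative to vehicle tumours. None of them passed between -NRAS and MEKi tumours, and whether they read the oncogene is not given in the sources used here, so they check no label. Of the melanocytic markers Pmel, Mlana, Mitf, Sox10 and Dct were tested, while Tyr and Tyrp1 lay below the filter. A single tumour stood apart, -NRAS replicate 2, whose 7 keratinocyte markers summed to 30241 intensity units, against 511 to 1245 in the other 17 tumours. Without it the counts of spindle and cytokinesis genes that passed were the same in each comparison (47, 44 and 48) and the medians were -1.39, 0.60 and -2.11.

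At 4 days after doxycycline withdrawal nearly all of the mitotic transcripts were lower. Relative to vehicle tumours 47 of 49 fell in -NRAS tumours and 0 rose (limma, Benjamini-Hochberg adjusted p under 0.05 over all genes tested), against a background of 27.5% of all tested genes that fell and 31.8% that rose. The median change was -1.35 on the scale of log2(intensity + 16), against 0.00 over all genes tested, and 39 of the 49 fell at least 2-fold, as 4.22% of all genes did. In the same 47 genes every -NRAS tumour was below every vehicle tumour, which held in this direction for 18.4% of all genes. Kif15 and Psrc1 did not pass. In bulk tumour RNA fewer dividing cells and less RNA per cell cannot be told apart.

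Markers of other cells moved in the same comparison. In -NRAS tumours, relative to vehicle tumours, 10 of 10 macrophage markers rose, with summed intensities of 43227 to 60926 in -NRAS tumours, 8508 to 19355 in MEKi tumours and 17511 to 27960 in vehicle tumours. Of 9 fibroblast markers 7 rose and 2 fell, with sums of 173802 to 202345 in -NRAS tumours, 117796 to 124927 in MEKi tumours and 76233 to 93672 in vehicle tumours. All 8 endothelial, all 7 skeletal muscle, 5 of 6 tested lymphoid and 4 of 5 tested melanocytic markers rose, and 0 of 7 keratinocyte markers passed. Of all genes tested 31.8% rose. The 7 melanocytic markers, tested or not, summed to 9602 to 12968 in -NRAS tumours, 12353.5 to 17641 in MEKi tumours and 9000 to 11081 in vehicle tumours. On these sums -NRAS and vehicle tumours overlapped. The part of all these markers in the falls of the mitotic genes was not tested.

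Under the MEK inhibitor most of these mitotic transcripts were higher. Relative to vehicle tumours 44 of 49 rose in MEKi tumours and 0 fell, against a background of 24.3% of all tested genes that rose and 20.9% that fell. The median change was 0.60, against 0.01 over all genes, and 2 genes, Aspm and Nusap1, rose at least 2-fold (1.85% of all genes did). In 24 of the 49 genes every MEKi tumour was above every vehicle tumour, which held in this direction for 12.8% of all genes. The genes that did not pass were Aurka, Fam83d, Kif15, Kif4 and Kpna2. Both comparisons use the same 6 vehicle arrays.
In MEKi tumours, relative to vehicle tumours, 8 of 10 macrophage markers fell and 0 rose, 6 of 9 fibroblast markers rose and 1 fell, and all 7 skeletal muscle markers rose. Of 8 endothelial markers 1 rose and 1 fell, of 5 tested melanocytic markers 2 rose, and 0 of the keratinocyte and lymphoid markers passed. Their part in the rises was not tested.

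The 2 treated arms were also compared directly. In the comparison of -NRAS with MEKi tumours 48 of 49 genes fell and 0 rose (background 22.7% fell and 24.3% rose), with a median change of -2.08, against -0.01 over all genes. At least 2-fold falls were seen in 45 of them, as in 2.75% of all genes. In 48 genes every -NRAS tumour was below every MEKi tumour, which held in this direction for 13.3% of all genes. Kif15 was the one gene that did not pass. Between these arms 10 of 10 macrophage, 8 of 8 endothelial, 8 of 9 fibroblast and 6 of 6 tested lymphoid markers were higher in -NRAS tumours. Of 7 skeletal muscle markers 1 was higher, of 5 tested melanocytic markers 3 were higher and 1 lower, and 0 of 7 keratinocyte markers passed. The part of all these markers in the differences was not tested.

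**Figure D1:**
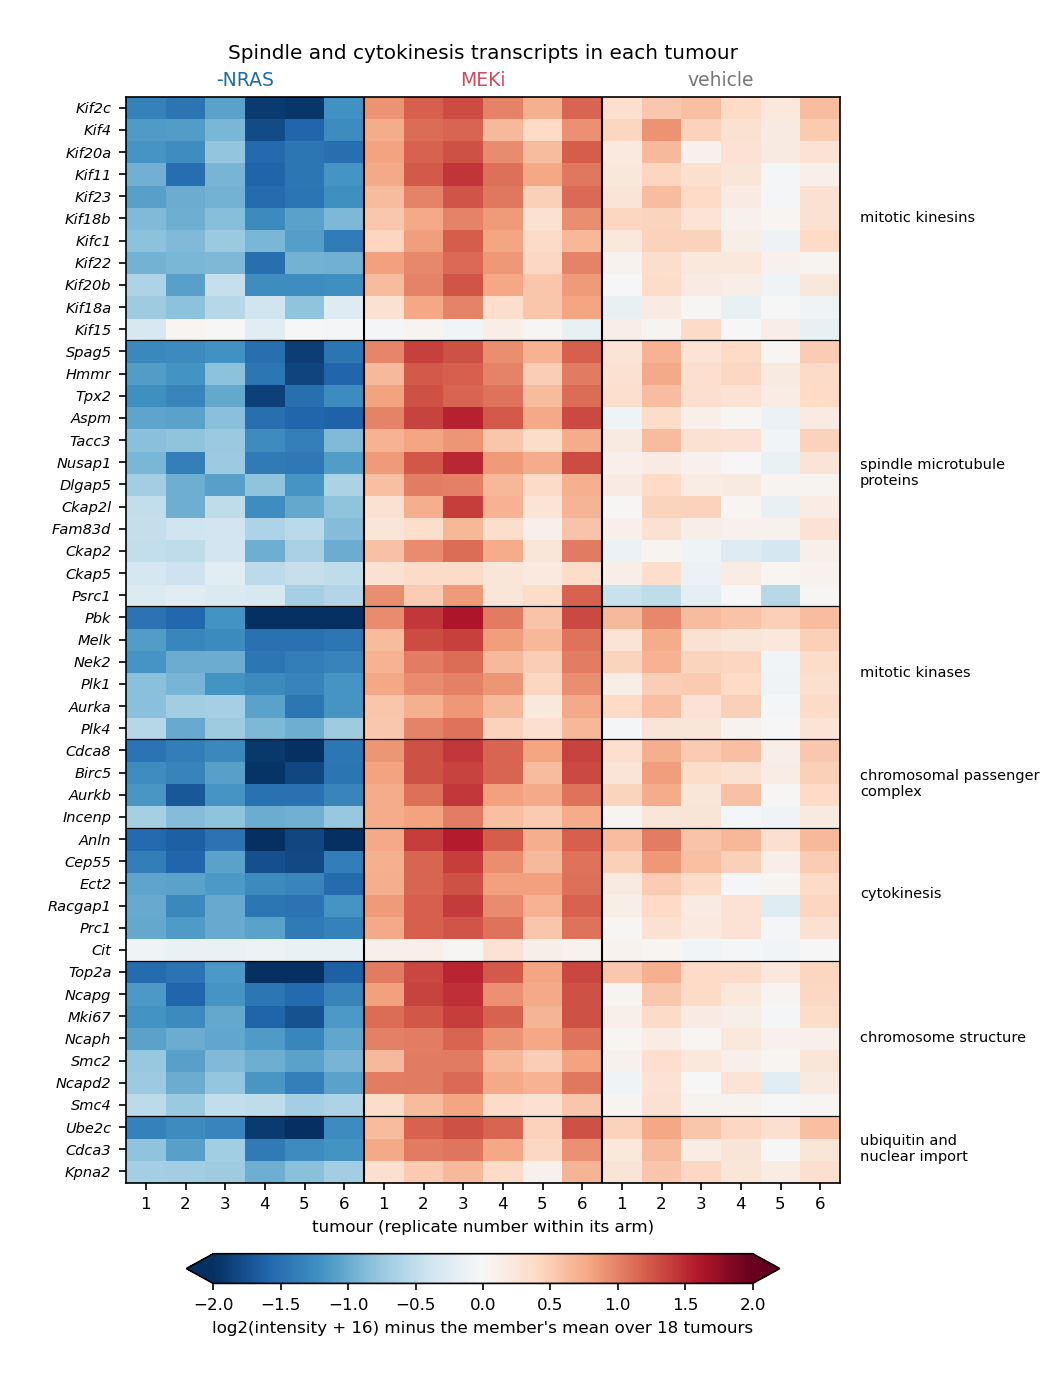
Each cell is the log2(intensity + 16) of 1 gene (rows, grouped by role) in 1 tumour (columns, by arm and replicate number) minus the gene's mean over all 18 tumours, on a colour scale from -2 to 2. The -NRAS columns are below the mean and the MEKi columns above it for nearly every row, the vehicle columns lie between them, and Kif15 and Cit are close to the mean throughout.

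Promoters were compared because the members moved together. RefSeq promoters (GRCm38.p6, 250 bases before to 50 after the start of 1 annotated transcript) were matched for 43 of the 50 genes. They were searched on both strands for the CHR letters TTTGAA or TTTAAA, for CCAAT, and for E2F letters (TTTCGCGC or TTTGGCGC). CHR letters were present in 35 of 43 promoters (81.4%, 95% Wilson interval 67.4 to 90.3%), against 19.5% of the 11995 promoters of tested genes and 27.8% of all 27025 promoters of the table. With TTTGAA alone the shares were 76.7% of these genes, 12.1% of tested genes and 18.1% of the table. CCAAT was found in 30 promoters (69.8%), against 38.0% of tested genes and 37.9% of the table, and both elements together in 65.1%, 7.66% and 10.9%. E2F letters were found in 3 promoters (6.98%), against 1.46% of tested genes and 0.833% of the table. The median GC content was 59.7% in these promoters and 60% in those of tested genes. CHR letters lay within 100 bases before to 50 after the start in 30 promoters (69.8%), against 7.81% of tested genes. In 25 promoters a CCAAT preceded the CHR letters nearest the start, by a median of 28 bases from first base to first base (range 6 to 146), and in 15 of these by 20 to 40 bases. The genes are a chosen list of mitotic genes and no random draw, so the interval is descriptive. The letters were counted without the changes measured here, but the list was chosen with earlier results of these data known. Such matches are descriptions of the letters, and no binding was measured here.

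**Figure D2:**
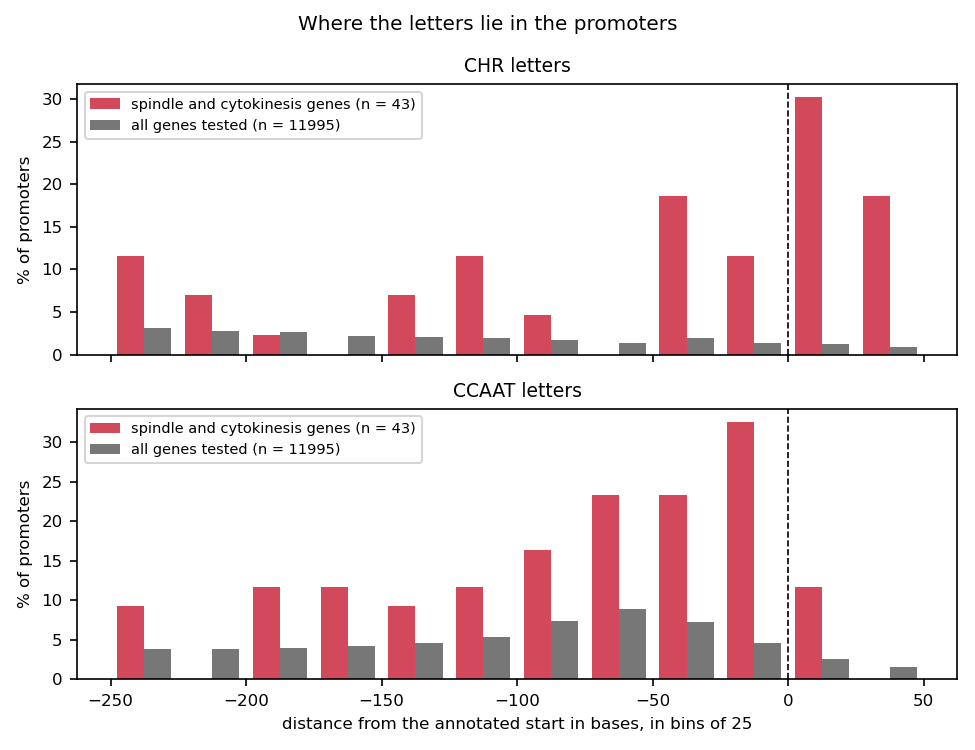
Share of promoters (y axis, %) with CHR letters (top) or CCAAT (bottom) starting in each bin of 25 bases (x axis, distance from the annotated start), for 43 spindle and cytokinesis genes (red) and 11995 tested genes (grey). CHR letters of the 43 genes are most frequent from 50 bases before the start onwards, and CCAAT lies mostly in the 100 bases before it.

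The promoters of 6 genes were picked to show the arrangement. It is a CCAAT (or ATTGG on the other strand) followed by TTTGAA (or TTCAAA on the other strand) close to the start. The genes are of 6 roles, and they fell in -NRAS tumours and rose in MEKi tumours. Each run of 160 bases reaches from 130 before the start to 30 after it, 5′ to 3′ on the gene's strand, with CHR, CCAAT and E2F letters in capitals. They are Top2a (topoisomerase II; chr11:99024160-99024319, minus strand), Ube2c (the E2 enzyme of the anaphase-promoting complex; chr2:164769799-164769958, plus strand), Kif11 (the motor that pushes spindle poles apart; chr19:37376252-37376411, plus strand), Prc1 (the bundler of the central spindle; chr7:80294321-80294480, plus strand), Cdca8 (borealin of the chromosomal passenger complex; chr4:124936888-124937047, minus strand) and Hmmr (a spindle assembly factor also known as a hyaluronan receptor; chr11:40733408-40733567, minus strand). In Cdca8 the CHR letters overlap an ATTGG.
Top2a: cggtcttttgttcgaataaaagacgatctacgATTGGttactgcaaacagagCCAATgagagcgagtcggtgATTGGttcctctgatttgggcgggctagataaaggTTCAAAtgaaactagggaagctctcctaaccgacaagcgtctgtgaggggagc
Ube2c: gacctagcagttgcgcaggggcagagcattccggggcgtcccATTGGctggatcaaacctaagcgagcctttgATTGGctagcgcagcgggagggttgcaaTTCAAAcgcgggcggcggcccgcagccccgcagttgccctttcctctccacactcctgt
Kif11: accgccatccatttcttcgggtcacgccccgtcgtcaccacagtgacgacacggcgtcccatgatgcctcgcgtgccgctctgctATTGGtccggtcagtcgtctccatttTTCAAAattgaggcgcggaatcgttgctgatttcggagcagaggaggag
Prc1: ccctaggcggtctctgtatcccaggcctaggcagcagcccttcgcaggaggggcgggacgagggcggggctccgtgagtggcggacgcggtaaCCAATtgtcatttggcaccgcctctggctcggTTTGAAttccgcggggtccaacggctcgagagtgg
Cdca8: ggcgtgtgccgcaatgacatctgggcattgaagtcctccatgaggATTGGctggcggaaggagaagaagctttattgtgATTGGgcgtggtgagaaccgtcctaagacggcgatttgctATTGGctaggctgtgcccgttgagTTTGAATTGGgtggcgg
Hmmr: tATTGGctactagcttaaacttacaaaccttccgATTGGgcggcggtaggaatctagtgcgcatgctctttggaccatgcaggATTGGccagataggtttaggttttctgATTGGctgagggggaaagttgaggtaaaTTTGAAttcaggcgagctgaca
The spacing from CCAAT to CHR letters was 35 bases in Top2a, 28 in Ube2c, 26 in Kif11, 32 in Prc1, 24 in Cdca8 and 28 in Hmmr.

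The 2 genes that did not pass in -NRAS minus vehicle tumours, by the probe set tested, are shown beside them. Kif15 (chr9:122950951-122951110, plus strand) holds CHR letters directly next to E2F letters (here TTTGGCGC on the other strand) and no CCAAT in its 300 bases. Psrc1 (chr3:108383674-108383833, plus strand) holds CCAAT but no CHR letters in its 300 bases.
Kif15: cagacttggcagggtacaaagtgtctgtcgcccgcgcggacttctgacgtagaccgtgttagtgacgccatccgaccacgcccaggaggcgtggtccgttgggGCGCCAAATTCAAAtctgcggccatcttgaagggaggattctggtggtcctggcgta
Psrc1: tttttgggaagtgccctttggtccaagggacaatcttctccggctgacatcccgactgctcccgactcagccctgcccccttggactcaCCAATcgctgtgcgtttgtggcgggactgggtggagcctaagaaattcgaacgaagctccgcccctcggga
Of the 8 promoters without CHR letters, that of Psrc1 is joined by those of Cit, Kif18a, Melk, Ncaph, Nek2, Nusap1 and Tacc3. The median change of the 34 tested genes with CHR letters was -1.39 in -NRAS minus vehicle tumours and 0.60 in MEKi minus vehicle tumours. That of the 8 genes without was -1.22 and 0.63, with ranges of -2.42 to -0.19 (with) and -1.73 to -0.11 (without) in the first comparison, which overlap. For CCAAT the medians were -1.36 and 0.64 in the 29 tested genes with it and -1.24 and 0.59 in the 13 without. Among those 13, changes in -NRAS minus vehicle tumours were -2.42 in Anln, -2.01 in Cep55, -1.94 in Kif2c and -1.88 in Birc5. They were -1.73 in Melk, which has no CHR letters either, -0.19 in Kif15 and -0.11 in Cit.

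The mitotic kinesins, motors that slide, depolymerise or anchor spindle microtubules, fell in 10 of 11 tested cases in -NRAS tumours (median -1.26) and rose in 9 of 11 in MEKi tumours (median 0.64). Values that follow are the lowest, median and highest intensity of the 6 tumours of an arm, and changes are log2 differences ± SE from the joint fit. Kif2c, which strips subunits from microtubule ends at centromeres, read 90.4, 139 and 179.8 in -NRAS tumours, 652, 847 and 992 in MEKi tumours and 457, 551 and 610.2 in vehicle tumours. No arms overlapped. It fell furthest of the kinesins, by 1.94 ± 0.14 in -NRAS minus vehicle tumours (limma adjusted p = 1.02e-09), and rose by 0.59 ± 0.14 in MEKi minus vehicle tumours (adjusted p = 0.00197). Kif11, the target of the Eg5 inhibitor class, read 43.9, 57.8 and 79.6 in -NRAS tumours, 293, 369.9 and 478 in MEKi tumours and 163, 199 and 231 in vehicle tumours. Its arms were again fully apart, and at 0.84 ± 0.13 (adjusted p = 3.78e-05) its rise in MEKi minus vehicle tumours was the steepest of the kinesins, beside a fall of 1.49 ± 0.13 in -NRAS minus vehicle tumours (adjusted p = 1.34e-08).

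Kif20a, which brings the chromosomal passenger complex to the central spindle, read 73.6, 88.2 and 137 in -NRAS tumours, 395, 535 and 622 in MEKi tumours and 264, 295 and 399.7 in vehicle tumours. The -NRAS tumours were all lowest, while the highest vehicle tumour (replicate 2) lay above the lowest MEKi tumour (replicate 5). It changed by -1.57 ± 0.13 in -NRAS minus vehicle tumours (adjusted p = 7.98e-09) and by 0.72 ± 0.13 in MEKi minus vehicle tumours (adjusted p = 0.000195). Its relative Kif20b, a motor of late cytokinesis, read 73.3, 78.8 and 138 in -NRAS tumours, 296, 357 and 492 in MEKi tumours and 184, 219 and 259 in vehicle tumours, with no overlap, and changed by -1.12 ± 0.14 (adjusted p = 1.7e-06) and 0.71 ± 0.14 (adjusted p = 0.000476) in these comparisons. Kif23 (of centralspindlin), Kif18b (a regulator of microtubule length), Kif22 (a chromosome-bound motor), Kifc1 (a minus-end motor that gathers poles) and Kif18a (which damps chromosome movements) fell by 0.56 to 1.49 and rose by 0.47 to 0.70, the smallest fall being that of Kif18a. Kif4, a chromosome-bound motor that works with Prc1, fell by 1.76 ± 0.15 in -NRAS minus vehicle tumours (adjusted p = 1.25e-08) but did not pass in MEKi minus vehicle tumours (0.36 ± 0.15, adjusted p = 0.0636). It passed there without MEKi replicate 5 (0.45, adjusted p = 0.0227), without vehicle replicate 2 (0.45, adjusted p = 0.0233) and without -NRAS replicate 4 (0.36, adjusted p = 0.0439). With the replicate number as a block in the fit Kif4 passed there as well (0.36, adjusted p = 0.00329).

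Kif15, which in human cells helps to keep the spindle bipolar, was the kinesin that passed in no comparison. It read 26.4, 36.1 and 38.7 in -NRAS tumours, 31.7, 37.2 and 42.6 in MEKi tumours and 32.0, 40.8 and 53.5 in vehicle tumours, and all arms overlapped. Its changes were -0.19 ± 0.08 in -NRAS minus vehicle tumours (adjusted p = 0.0565), -0.10 ± 0.08 in MEKi minus vehicle tumours (adjusted p = 0.365) and -0.09 ± 0.08 in -NRAS minus MEKi tumours (adjusted p = 0.393). Its single probe set was dim, not far above the filter. In -NRAS minus vehicle tumours it passed without vehicle replicate 6 (-0.23, adjusted p = 0.0164), without -NRAS replicate 2 (-0.21, adjusted p = 0.0396) and without -NRAS replicate 3 (-0.21, adjusted p = 0.0471).

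Among spindle microtubule proteins 11 of 12 fell in -NRAS tumours (median -1.15) and 11 of 12 rose in MEKi tumours (median 0.61). Spag5 (astrin), which stabilises kinetochore fibres, read 31.2, 51.3 and 59.1 in -NRAS tumours, 267, 355 and 436 in MEKi tumours and 162, 204 and 266 in vehicle tumours. All arms were apart, and its change of -1.80 ± 0.13 in -NRAS minus vehicle tumours (adjusted p = 8.91e-10) was the largest of its role, beside 0.71 ± 0.13 in MEKi minus vehicle tumours (adjusted p = 0.000176). Tpx2, the activator and spindle anchor of Aurora A, read 90.8, 144 and 176 in -NRAS tumours, 592, 823 and 928 in MEKi tumours and 416, 479 and 584 in vehicle tumours. It too had no overlap, with changes of -1.72 ± 0.13 (adjusted p = 1.14e-09) and 0.66 ± 0.13 (adjusted p = 0.000295). Aspm, a spindle pole protein whose human gene is mutated in primary microcephaly, read 142, 185 and 256 in -NRAS tumours, 808, 1159 and 1400.2 in MEKi tumours and 430.2, 493.2 and 609.8 in vehicle tumours. Its rise of 1.12 ± 0.14 in MEKi minus vehicle tumours (adjusted p = 4.3e-06) was the largest of all 49 genes, and it fell by 1.36 ± 0.14 in -NRAS minus vehicle tumours (adjusted p = 1.64e-07). The other 3 Aspm probe sets, all dimmer, did not pass in MEKi minus vehicle tumours (0.01 to 0.46, adjusted p = 0.0581 to 0.957 over probe sets) and fell in -NRAS minus vehicle tumours (by 0.36 to 0.71).

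Ckap5, a microtubule polymerase that interphase cells use as well, moved little. It read 326, 345 and 405 in -NRAS tumours, 544, 601 and 626 in MEKi tumours and 436, 506 and 606 in vehicle tumours. The -NRAS tumours were all lowest and the MEKi and vehicle tumours overlapped, with changes of -0.51 ± 0.07 in -NRAS minus vehicle tumours (adjusted p = 3.33e-06) and 0.21 ± 0.07 in MEKi minus vehicle tumours (adjusted p = 0.0169). Psrc1, a microtubule-binding protein of the spindle, had a pattern of its own. It read 89.2, 119.7 and 128 in -NRAS tumours, 181, 254 and 361 in MEKi tumours and 97.3, 118 and 153 in vehicle tumours. The -NRAS and vehicle tumours overlapped (-0.11 ± 0.15, adjusted p = 0.553), and every MEKi tumour was above both (0.96 ± 0.15 against vehicle tumours, adjusted p = 3.33e-05). The other Psrc1 probe set, a dimmer one, fell by 0.28 ± 0.07 in -NRAS minus vehicle tumours (adjusted p = 0.00266, over probe sets) and rose by 0.22 ± 0.07 in MEKi minus vehicle tumours (adjusted p = 0.0192). Hmmr, Nusap1 (a microtubule bundler), Tacc3 (which recruits Ckap5), Dlgap5 (HURP, a stabiliser of kinetochore fibres), Ckap2, Ckap2l and Fam83d (which brings casein kinase 1 to the spindle) changed by -1.73 to -0.56 in -NRAS minus vehicle tumours. Of these 7 genes, 6 rose, by 0.37 to 1.00, and Fam83d did not pass in MEKi minus vehicle tumours (0.21 ± 0.09, adjusted p = 0.0705). The call of Tacc3 there was lost without vehicle replicate 5 (0.30, adjusted p = 0.0519). Fam83d passed without MEKi replicate 5 (0.27, adjusted p = 0.0227) and without -NRAS replicate 6 (0.21, adjusted p = 0.0427).

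**Figure D3:**
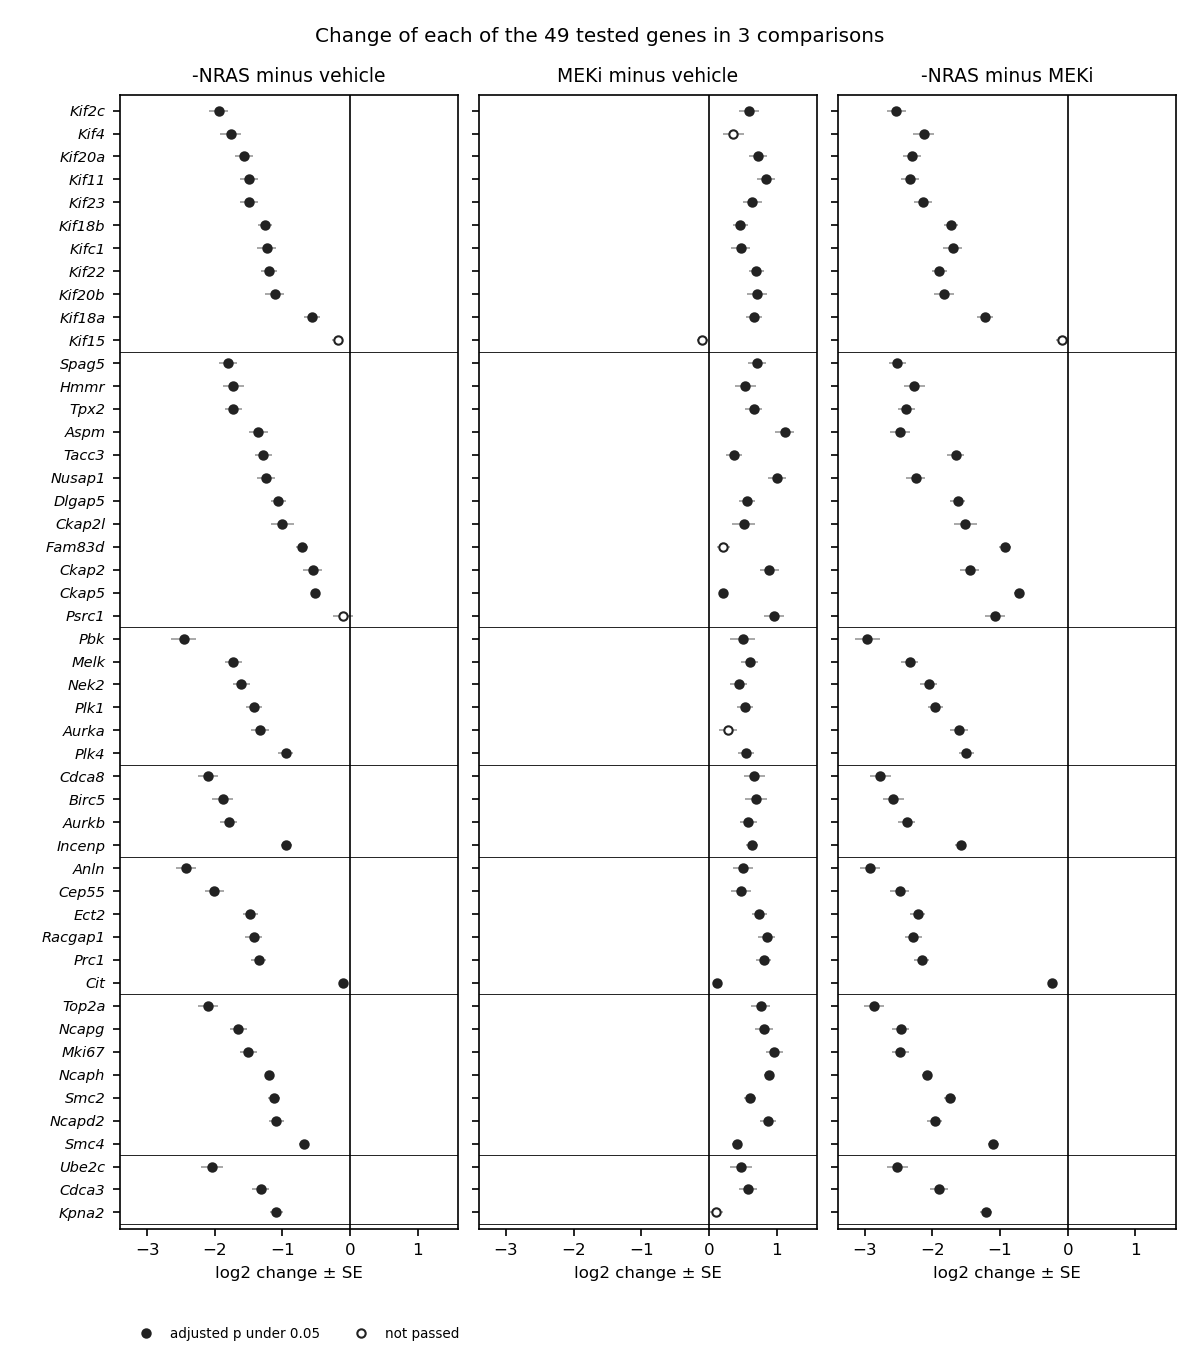
Log2 change (x axis, ± SE from limma) of each of 49 tested genes (rows, grouped by role) in -NRAS minus vehicle, MEKi minus vehicle and -NRAS minus MEKi tumours, with filled points for adjusted p under 0.05. Points lie left of 0 for 49 of 49 genes in the first panel and right of 0 for 48 of 49 in the second, where they are closer to 0.

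All 6 mitotic kinases fell in -NRAS tumours (median -1.52) and 5 rose in MEKi tumours (median 0.52). Plk1, which drives mitotic entry and exit, read 88.1, 99.5 and 131 in -NRAS tumours, 338, 478 and 511 in MEKi tumours and 234, 323 and 361 in vehicle tumours. Only its MEKi and vehicle tumours overlapped, and it changed by -1.42 ± 0.11 in -NRAS minus vehicle tumours (adjusted p = 4.05e-09) and 0.53 ± 0.11 in MEKi minus vehicle tumours (adjusted p = 0.000889). Aurka, the Aurora kinase of spindle poles, read 63.7, 96.5 and 121 in -NRAS tumours, 236, 331 and 379.8 in MEKi tumours and 195, 268 and 313 in vehicle tumours. It fell by 1.33 ± 0.14 in -NRAS minus vehicle tumours (adjusted p = 9.1e-08) and did not pass in MEKi minus vehicle tumours (0.28 ± 0.14, adjusted p = 0.106), where it passed without MEKi replicate 5 (0.36, adjusted p = 0.0339). With the replicate number as a block in the fit Aurka passed there as well (0.28, adjusted p = 0.0119). Plk4, which starts centriole duplication, had the smallest fall of the kinases. It read 304, 354 and 418 in -NRAS tumours, 801, 968 and 1359.9 in MEKi tumours and 618, 709 and 764 in vehicle tumours, with no overlap, and changed by -0.95 ± 0.12 (adjusted p = 8.68e-07) and 0.54 ± 0.12 (adjusted p = 0.000763).

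Pbk (TOPK), a mitotic kinase of the MAPK kinase family, had the largest fall of all 49 genes. It read 234, 327 and 512 in -NRAS tumours, 1771, 2731 and 3703 in MEKi tumours and 1670.2, 1842 and 2332 in vehicle tumours, a change of -2.46 ± 0.19 in -NRAS minus vehicle tumours (adjusted p = 1.77e-09). Its MEKi and vehicle tumours overlapped, and its rise of 0.50 ± 0.19 (adjusted p = 0.0347) was lost when any one of 8 tumours was left out (vehicle replicates 1, 3, 4, 5 and 6 and MEKi replicates 2, 3 and 6), at changes of 0.41 to 0.50. Melk, a kinase of proliferating and progenitor cells, read 62.2, 69.2 and 85.6 in -NRAS tumours, 325, 415 and 552 in MEKi tumours and 239.8, 253 and 352 in vehicle tumours. It changed by -1.73 ± 0.13 in -NRAS minus vehicle tumours (adjusted p = 1.04e-09) and by 0.60 ± 0.13 in MEKi minus vehicle tumours (adjusted p = 0.000613). Nek2, which separates centrosomes, changed by -1.61 ± 0.12 in -NRAS minus vehicle tumours (adjusted p = 2.4e-09) and 0.44 ± 0.12 in MEKi minus vehicle tumours (adjusted p = 0.00715).

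The 4 subunits of the chromosomal passenger complex, the Aurora B kinase and its partners, all fell in -NRAS tumours (median -1.84) and all rose in MEKi tumours (median 0.65). Aurkb, the kinase, read 48.6, 63.2 and 77.1 in -NRAS tumours, 335, 390.2 and 542 in MEKi tumours and 196, 264 and 333 in vehicle tumours. The arms did not overlap, although the lowest MEKi tumour and the highest vehicle tumour were nearly level, and the changes were -1.80 ± 0.13 in -NRAS minus vehicle tumours (adjusted p = 1e-09) and 0.58 ± 0.13 in MEKi minus vehicle tumours (adjusted p = 0.00116). Birc5 (survivin), which docks the complex on centromeres, read 154, 237 and 296 in -NRAS tumours, 1012, 1529 and 1686 in MEKi tumours and 720.1, 821 and 1174 in vehicle tumours. Its MEKi and vehicle tumours overlapped, and it changed by -1.88 ± 0.16 (adjusted p = 6.82e-09) and 0.69 ± 0.16 (adjusted p = 0.00133). Cdca8 (borealin), with 109, 194 and 222 in -NRAS tumours, 988, 1339 and 1529 in MEKi tumours and 620.5, 821 and 943 in vehicle tumours, fell furthest of the complex, at -2.10 ± 0.15 (adjusted p = 9.59e-10), and changed by 0.67 ± 0.15 in MEKi minus vehicle tumours (adjusted p = 0.0013). Its arms were apart.
Incenp, the scaffold that activates Aurora B, fell least of the complex. It read 461, 515 and 583 in -NRAS tumours, 1348, 1569 and 1904 in MEKi tumours and 886, 1011 and 1112 in vehicle tumours, with no overlap, and changed by -0.94 ± 0.08 (adjusted p = 1.28e-08) and 0.64 ± 0.08 (adjusted p = 4.65e-06). Of its 5 probe sets, the 3 brighter ones passed in both comparisons in these directions, and 2 dim ones, with arm means of 24.1 to 30.2 intensity units, passed in neither.

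**Figure D4:**
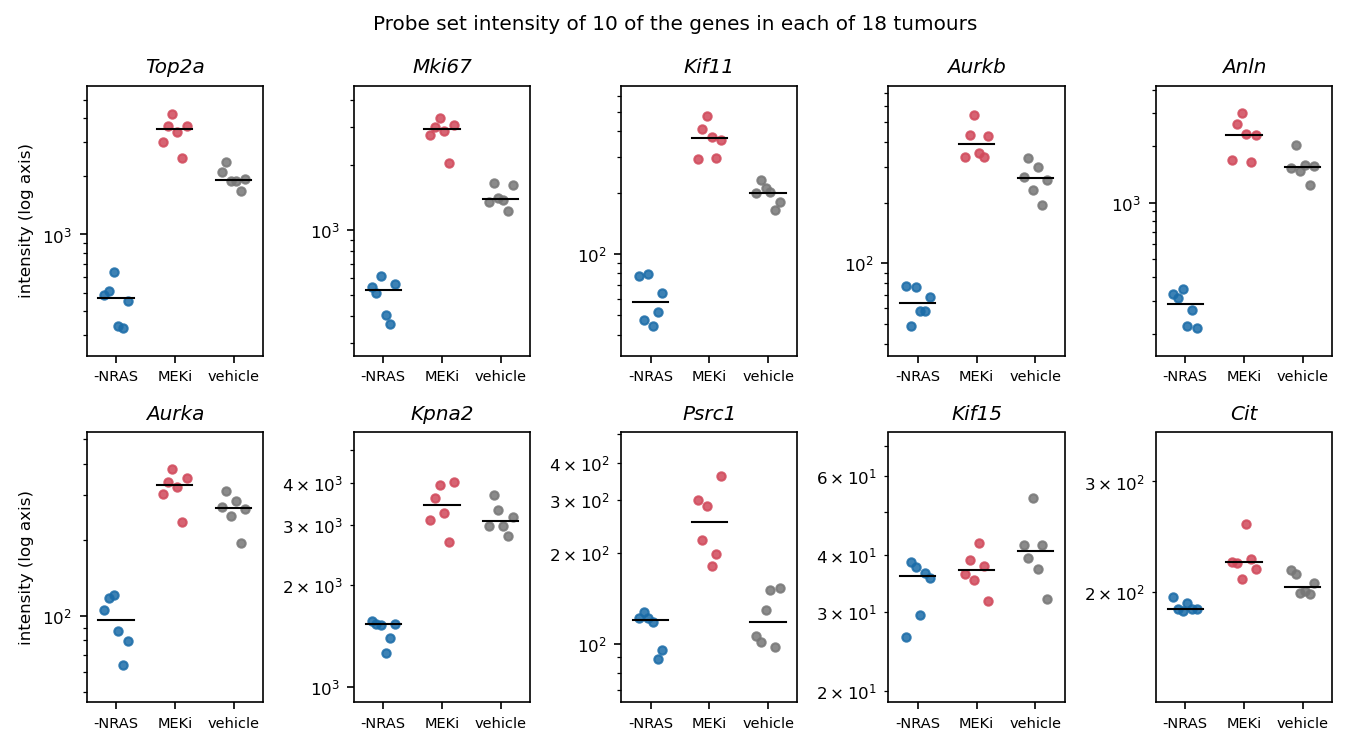
Probe set intensity (y axis, log scale, its own range in each panel) of 10 genes in every tumour, with 6 points per arm and a line at the median, for -NRAS, MEKi and vehicle tumours from left to right. In the 5 upper panels the -NRAS points lie below all others, while in the lower panels Psrc1 has -NRAS and vehicle points level and Kif15 and Cit span narrow ranges.

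All 6 cytokinesis genes fell in -NRAS tumours (median -1.45) and all 6 rose in MEKi tumours (median 0.62). Anln (anillin), the scaffold that ties the contractile ring to the membrane, read 214, 289.7 and 346 in -NRAS tumours, 1654, 2302 and 2983 in MEKi tumours and 1245, 1548 and 2027 in vehicle tumours. Its -NRAS tumours were all far below the rest, with a change of -2.42 ± 0.15 in -NRAS minus vehicle tumours (adjusted p = 1.23e-10), while its MEKi and vehicle tumours overlapped (0.50 ± 0.15, adjusted p = 0.0104). Prc1, which crosslinks the antiparallel microtubules of the midzone, read 299, 376 and 401 in -NRAS tumours, 1223, 1764 and 1991 in MEKi tumours and 804, 981 and 1022 in vehicle tumours. It had no overlap and changed by -1.35 ± 0.11 (adjusted p = 5.7e-09) and 0.81 ± 0.11 (adjusted p = 9.36e-06). Racgap1, the GTPase-activating subunit of centralspindlin, read 73.4, 90.1 and 109 in -NRAS tumours, 391, 507 and 642 in MEKi tumours and 196, 277 and 320.3 in vehicle tumours, and its 0.85 ± 0.13 (adjusted p = 2.21e-05) was the largest rise of its role, beside -1.43 ± 0.13 in -NRAS minus vehicle tumours (adjusted p = 1.55e-08). Ect2, the exchange factor that activates RhoA at the midzone, changed by -1.48 ± 0.11 and 0.74 ± 0.11 in these comparisons, and Cep55, an adaptor of abscission, by -2.01 ± 0.14 and 0.47 ± 0.14.

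Cit (citron kinase), a kinase of the midbody that is also made in neurons, was nearly level. It read 186, 188 and 196 in -NRAS tumours, 209.8, 223 and 257 in MEKi tumours and 199, 203 and 216 in vehicle tumours. The -NRAS tumours were all below the vehicle tumours and the MEKi tumours overlapped with them, with changes of -0.11 ± 0.04 in -NRAS minus vehicle tumours (adjusted p = 0.0452), 0.12 ± 0.04 in MEKi minus vehicle tumours (adjusted p = 0.0315) and -0.23 ± 0.04 in -NRAS minus MEKi tumours (adjusted p = 0.000285). The first call was lost when any one of 10 tumours was left out (vehicle replicates 1, 2 and 6, -NRAS replicates 2 to 6 and MEKi replicates 2 and 5; -0.11 to -0.09), and the second without vehicle replicate 3, 4 or 5 or MEKi replicate 4 (0.09 to 0.12). Its 4 probe sets differed. The most responsive, with arm means of 88.8 in -NRAS tumours, 203.6 in MEKi tumours and 145.0 in vehicle tumours, changed by -0.61 ± 0.11 in -NRAS minus vehicle tumours (adjusted p = 9.79e-05, over probe sets) and by 0.45 ± 0.11 in MEKi minus vehicle tumours (adjusted p = 0.00253).

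The 7 genes of chromosome structure fell in -NRAS tumours (median -1.20) and rose in MEKi tumours (median 0.81), each by its brightest probe set. Top2a, the topoisomerase that untangles sister DNA, read 329, 471 and 642 in -NRAS tumours, 2504, 3528 and 4197 in MEKi tumours and 1679, 1921 and 2369.5 in vehicle tumours. No arms overlapped, and it changed by -2.10 ± 0.15 in -NRAS minus vehicle tumours (adjusted p = 5.35e-10), by 0.76 ± 0.15 in MEKi minus vehicle tumours (adjusted p = 0.000276) and by -2.86 ± 0.15 in -NRAS minus MEKi tumours (adjusted p = 4.02e-11). Mki67, which encodes the Ki-67 protein that coats mitotic chromosomes and marks cycling cells in pathology, read 368, 529.6 and 617 in -NRAS tumours, 2046, 2957 and 3329 in MEKi tumours and 1232, 1399 and 1649.9 in vehicle tumours. It was likewise apart in every arm, with changes of -1.51 ± 0.13 (adjusted p = 6.47e-09), 0.97 ± 0.13 (adjusted p = 4.7e-06) and -2.47 ± 0.13 (adjusted p = 4.02e-11).
The other 5 genes encode condensin I, the ring that compacts chromosomes, and its 2 SMC subunits are shared with condensin II. Ncapg, Ncaph and Ncapd2, the subunits particular to condensin I, changed by -1.65 ± 0.13, -1.20 ± 0.07 and -1.09 ± 0.11 in -NRAS minus vehicle tumours and by 0.81 ± 0.13, 0.89 ± 0.07 and 0.88 ± 0.11 in MEKi minus vehicle tumours, with no overlap between arms. Of the SMC subunits, Smc2 changed by -1.12 ± 0.09 in -NRAS minus vehicle tumours and 0.61 ± 0.09 in MEKi minus vehicle tumours. That rise was lost with the most variable of its probe sets (0.33, adjusted p = 0.173), and 2 of its 5 probe sets rose. Smc4 had the smallest changes of the role, with -0.68 ± 0.08 (adjusted p = 4.43e-07) and 0.41 ± 0.08 (adjusted p = 0.000269). Smc4 read 804, 909 and 957 in -NRAS tumours, 1677, 1881 and 2349.8 in MEKi tumours and 1348, 1418 and 1686 in vehicle tumours, of which the MEKi and vehicle tumours overlapped. The subunits particular to condensin II also fell in -NRAS minus vehicle tumours, Ncapg2 by 1.10, Ncapd3 by 0.47 and Ncaph2 by 0.28. In MEKi minus vehicle tumours Ncapg2 (0.58) and Ncapd3 (0.22) rose and Ncaph2 did not pass (0.12, adjusted p = 0.0593).

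The last 3 genes act in protein turnover and nuclear import, and all fell in -NRAS tumours (median -1.32) while 2 rose in MEKi tumours (median 0.48). Ube2c, which charges the anaphase-promoting complex with ubiquitin, read 193, 314 and 334 in -NRAS tumours, 1126, 1866 and 2007 in MEKi tumours and 1030.5, 1169 and 1409 in vehicle tumours. Its MEKi and vehicle tumours overlapped, and it changed by -2.04 ± 0.16 in -NRAS minus vehicle tumours (adjusted p = 2.76e-09) and 0.48 ± 0.16 in MEKi minus vehicle tumours (adjusted p = 0.02). Cdca3, a trigger of mitotic entry that acts in degradation of the kinase WEE1, read 137, 168 and 235 in -NRAS tumours, 524, 711 and 841 in MEKi tumours and 389, 459 and 612 in vehicle tumours. It changed by -1.32 ± 0.13 (adjusted p = 6.37e-08) and 0.58 ± 0.13 (adjusted p = 0.00127), and its MEKi and vehicle tumours overlapped. Kpna2, an importin that also holds back Tpx2 until it is released at mitotic chromosomes, read 1263, 1531 and 1563 in -NRAS tumours, 2664, 3427 and 4009 in MEKi tumours and 2785, 3082 and 3679 in vehicle tumours. It fell by 1.09 ± 0.09 in -NRAS minus vehicle tumours (adjusted p = 8.33e-09) and did not pass in MEKi minus vehicle tumours (0.11 ± 0.09, adjusted p = 0.357).

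Across all of their probe sets, 102 of 119 passed the filter. Of these 92 fell in -NRAS minus vehicle tumours and 0 rose, 75 rose in MEKi minus vehicle tumours and 0 fell, and 99 fell in -NRAS minus MEKi tumours and 0 rose. Of all 27656 probe sets tested, 28.6% fell in the first comparison, 20.9% rose in the second and 21.2% fell in the third. In the 27 genes with several tested probe sets, all of them pointed the same way in 26, 23 and 26 genes in these comparisons, and no gene had probe sets that passed in opposite directions.

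Tumours of one arm differed in how much of the whole group they expressed. The mean deviation of the 49 genes from their own means over all tumours was -1.31 to -0.85 in -NRAS tumours (median -1.09), 0.51 to 1.14 in MEKi tumours (median 0.88) and 0.03 to 0.48 in vehicle tumours (median 0.25). The arms did not overlap on it, and replicate 5 was the lowest in each of them. The spread within an arm, 0.46, 0.63 and 0.45 from lowest to highest in -NRAS, MEKi and vehicle tumours, was close in size to the MEKi minus vehicle median change. Within arms the genes varied together: the mean pairwise correlation of their deviations from the arm means was 0.62 over 18 tumours, against 0.01 over all genes tested, and 0.52, 0.75 and 0.64 within the 6 -NRAS, 6 MEKi and 6 vehicle tumours. All points share arrays, so array-wide differences enter these values. Cep55 followed the rest of the group most closely (0.95), and Kif15 (-0.16), Cit (-0.15), Psrc1 (0.36) and Kif18a (0.39) least.

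Genes of the same processes outside the group moved in both directions. Of 154 tested genes in 7 lists, 72 fell and 43 rose in -NRAS minus vehicle tumours (median -0.12), 69 rose and 22 fell in MEKi minus vehicle tumours (median 0.11), and 84 fell and 20 rose in -NRAS minus MEKi tumours. In shares, 46.8% fell and 27.9% rose, 44.8% rose and 14.3% fell, and 54.5% fell and 13.0% rose, beside 27.5% and 31.8%, 24.3% and 20.9%, and 22.7% and 24.3% of all genes tested. Of 29 other kinesins, many of them transport motors of interphase, 10 fell and 9 rose in -NRAS tumours (34.5% and 31.0%, near the shares of all genes) and 12 rose and 4 fell in MEKi tumours (41.4% and 13.8%). The largest changes among them were those of Kif3c (-1.09 ± 0.07 in -NRAS minus vehicle tumours), a transport motor, and Kif21a (1.05 ± 0.09 in MEKi minus vehicle tumours), which restrains microtubule growth. Of 30 other spindle assembly genes 16 fell and 6 rose in -NRAS tumours (53.3% and 20%), and 14 rose and 6 fell in MEKi tumours (46.7% and 20%). The share that fell in MEKi tumours was near that of all genes (20.9%). Haus1 and Tubg1, of the augmin and gamma-tubulin complexes that nucleate spindle microtubules, fell by 1.07 ± 0.09 and 0.98 ± 0.07 in -NRAS minus vehicle tumours. Mapre2, a microtubule end-binding protein, rose in both treated arms, by 1.46 ± 0.08 in -NRAS minus vehicle tumours and 1.49 ± 0.08 in MEKi minus vehicle tumours. Of 10 tubulins 6 fell and 3 rose in -NRAS tumours (60% and 30%), led by Tuba4a (1.19 ± 0.21) and Tubb5 (-0.82 ± 0.06), and 3 rose and 1 fell in MEKi tumours (30% and 10%). The share of tubulins that rose in -NRAS tumours was near that of all genes (31.8%).

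Centriole duplication genes fell in 7 of 18 cases and rose in 4 in -NRAS tumours (38.9% and 22.2%), with Stil (-1.47 ± 0.14) and Cdk5rap2 (-1.02 ± 0.08) lowest, and 10 (55.6%) rose and 0 fell in MEKi tumours. Of 20 genes of condensin II and cohesin 12 fell and 5 rose in -NRAS tumours (60% and 25%) and 14 rose and 1 fell in MEKi tumours (70% and 5%). Sgo2a, the shugoshin that protects centromeric cohesin, and Cdca5 (sororin), which locks cohesin on DNA, fell by 1.80 ± 0.16 and 1.75 ± 0.12 in -NRAS minus vehicle tumours, and Esco2, an acetyltransferase of cohesin, rose by 1.15 ± 0.12 in MEKi minus vehicle tumours. Of 25 genes of the contractile ring and abscission, which many non-dividing cells also use, 9 fell and 9 rose in -NRAS tumours (36% each) and 8 fell and 7 rose in MEKi tumours (32% and 28%), with nearly as many in one direction as in the other, as over all genes, of which 27.5% fell and 31.8% rose in -NRAS tumours and 20.9% fell and 24.3% rose in MEKi tumours. Myl9, a myosin light chain abundant in smooth muscle and contractile fibroblasts, rose in both, by 2.27 ± 0.17 in -NRAS minus vehicle tumours and 1.20 ± 0.17 in MEKi minus vehicle tumours, while Kntc1, a kinetochore checkpoint protein (Rod) counted in that list, fell by 1.67 ± 0.13 in -NRAS minus vehicle tumours.

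**Figure D5:**
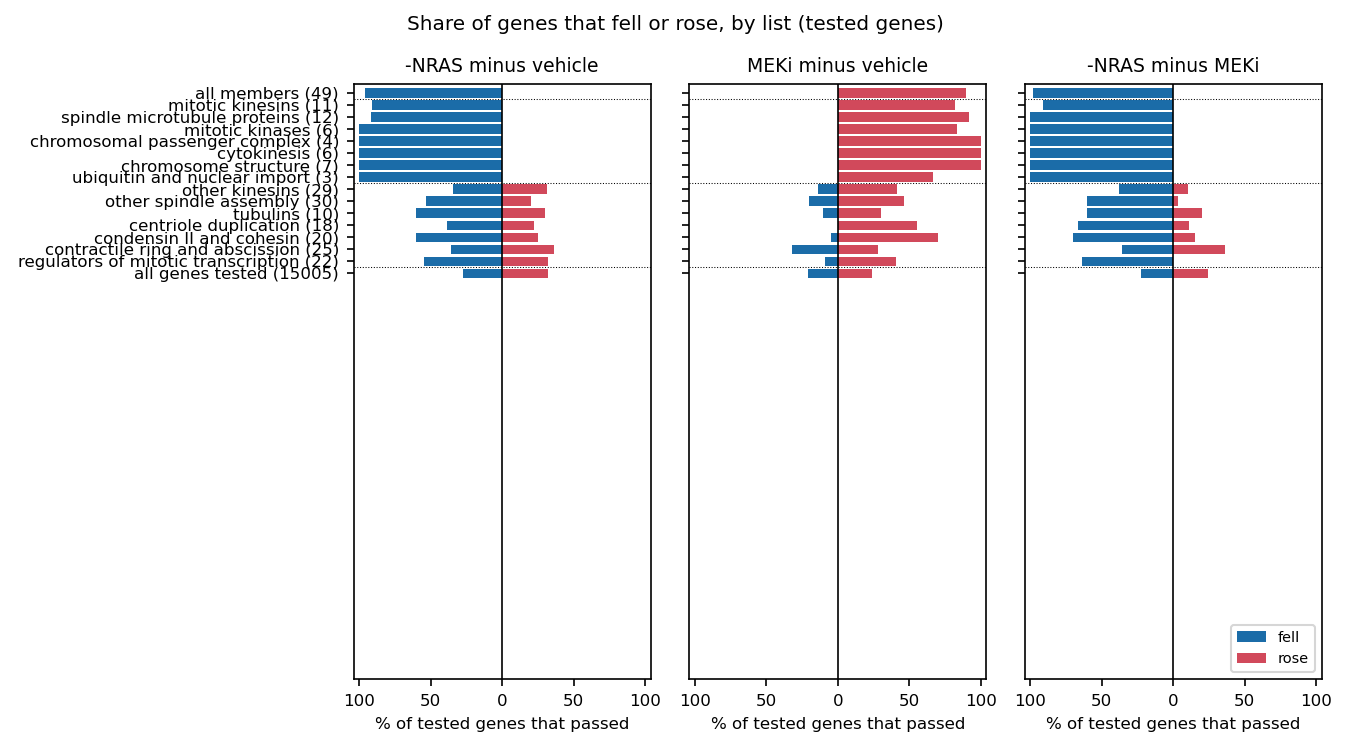
Share of tested genes (x axis, %) that fell (left, blue) or rose (right, red) at adjusted p under 0.05 in 3 comparisons, for all 49 spindle and cytokinesis genes, their 7 roles, 7 lists of other genes of mitosis and all 15005 genes tested, with the number of genes in brackets. The upper bars lie almost wholly on one side of 0, while the bars of the 7 lists run to both sides in most panels.

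Of 22 regulators of mitotic transcription 12 fell and 7 rose in -NRAS tumours, and 9 rose and 2 fell in MEKi tumours. In -NRAS tumours 54.5% fell and 31.8% rose, beside 27.5% and 31.8% of all genes, so the share that rose was that of all genes. In MEKi tumours 40.9% rose and 9.09% fell, beside 24.3% and 20.9% of all genes. Foxm1, the forkhead factor of G2 phase, read 115, 135 and 144 in -NRAS tumours, 176, 225 and 288 in MEKi tumours and 166, 188 and 214 in vehicle tumours. It fell by 0.46 ± 0.09 in -NRAS minus vehicle tumours (adjusted p = 0.000158), with no overlap, and rose by 0.24 ± 0.09 in MEKi minus vehicle tumours (adjusted p = 0.0349), where the arms overlapped. Mybl2, which encodes B-MYB, read 27.2, 35.3 and 48.2 in -NRAS tumours, 45.6, 57.2 and 74.9 in MEKi tumours and 38.3, 56.5 and 74.5 in vehicle tumours. It fell by 0.47 ± 0.12 in -NRAS minus vehicle tumours (adjusted p = 0.003), where the arms overlapped, and did not pass in MEKi minus vehicle tumours (0.04 ± 0.12, adjusted p = 0.844). The 2 largest falls of the list were those of E2f7 (-2.25 ± 0.16) and E2f8 (-1.79 ± 0.12), repressors of the E2F family.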

How the data were processed

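The authors deposited 1 table of probe set intensity values for 18 one-colour Affymetrix arrays (45037 probe sets). Per the labels' protocols, about 50 mg of each tumour without skin went into Trizol, and 10 ug of its total RNA were biotinylated. Per the submitters' processing notes MAS5 and RMA were used, with no versions; which one gave the deposited table is not stated. Linear intensities were assumed, since all were positive with medians near those given in the text; on another scale, fold changes would differ. The number of arrays limits the precision. No batch is labelled.

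Symbols came from the platform annotation, brought up to date through RefSeq's gene table (34945 had 1 symbol, 932 several, 9160 no entry). Each gene was read by its brightest probe set, values became log2(intensity + 16), and genes at or below the 25th percentile were dropped. All 3 arms entered 1 limma 3.58.1 fit in R 4.3.3 (15 residual degrees of freedom, prior 3.46), with Benjamini-Hochberg adjusted p under 0.05 over 15005 genes per comparison. Probe set values were fitted likewise over 27656 probe sets. The fit was tested on simulated data. Whether an arm overlaps another refers to single tumours. Intervals and shares for promoters count letters only.

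The genes and lists were chosen with earlier results of these data known, so counts over them are descriptions with no list test. Values are given for a fixed set of well-known genes and, per role, for those with the largest and smallest change against vehicle. Each result was recomputed with array weights, with a robust trended prior, with a pseudocount of 64 or 1, with the filter raised to the 50th percentile or removed, with a gene read by its most variable probe set or by their mean, after quantile normalization or centring on medians, with fits of only the 2 arms compared, with a replicate block, with stricter thresholds, with TTTGAA alone, and without each tumour in turn. Promoters of Aurkb, Dlgap5, Incenp, Kif20a, Pbk, Smc4 and Tpx2 were not used here.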

Additional observations from a re-analysis of the deposited data

Results flagged for a closer look

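In 6 of 150 gene and arm combinations, 1 tumour lay further from the others than Dixon's 95% limit for 6 values. Chance does so in about 1 in 20 such groups, or 7.5 of 150. In -NRAS tumours replicate 4 was the lowest for Kif22 (288 intensity units, others 428 to 451). In MEKi tumours replicate 4 was the highest for Cit (257, others 209.8 to 226) and replicate 5 the lowest for Mki67 (2046, others 2774 to 3329). In vehicle tumours replicate 2 was the highest for Kif20a (399.7, others 264 to 308), Pbk (2332, others 1670.2 to 1881) and Smc4 (1686, others 1348 to 1428). When that tumour was left out, Cit lost its call in MEKi minus vehicle tumours (0.09, adjusted p = 0.0735), and the calls of Kif20a, Kif22, Mki67, Pbk and Smc4 kept their side of the threshold in all 3 comparisons.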

How the results depend on the processing

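The counts of spindle and cytokinesis genes that passed in -NRAS minus vehicle, MEKi minus vehicle and -NRAS minus MEKi tumours (47, 44 and 48) stayed within 1.5 times under each alternative, except that a 2-fold threshold left 2 rises in MEKi minus vehicle tumours. That threshold also left 19, 6 and 21 calls of the 154 other genes of mitosis, against 115, 91 and 104. Leaving out 1 tumour at a time gave 46 to 47, 41 to 47 and 48 to 48 calls of the spindle and cytokinesis genes, with medians of -1.40 to -1.30, 0.54 to 0.67 and -2.13 to -2.03. For the genes that fell it gave 46 to 47, 0 to 0 and 48 to 48, for those that rose 0 to 0, 41 to 47 and 0 to 0, and for the 154 other genes 106 to 114, 81 to 92 and 95 to 105 calls. Medians moved by more than the spread between tumours with the mean of all probe sets (-0.96, 0.40 and -1.38), which averages in dim probe sets, and with a pseudocount of 64 (-1.07 and -1.69 in the comparisons with -NRAS tumours), which shrinks changes by construction. The mean deviation of vehicle replicate 5, 0.03, became -0.0032 with that pseudocount. Same-numbered tumours of different arms correlated by -0.14 to 0.27 (18 pairs, mean 0.07, against -0.01 for other numbers). The correlation was over 0.1 in 8 of the 18 pairs, 4 of them among the 6 of MEKi with vehicle tumours. In 14 of 36 cases a tumour correlated best with its own number, out of the 6 tumours of the other arm. If the numbers marked nothing shared, about 1 case in 6 would do so. These were 8 of 12 cases for MEKi with vehicle tumours, 5 of 12 for -NRAS with MEKi tumours and 1 of 12 for -NRAS with vehicle tumours. The labels give the number no meaning, and whether it marks something shared is not known. With the number as a replicate block the calls were 46, 46 and 48 of the 49 genes and 109, 87 and 102 of the 154, and medians did not move: Cit lost its call in -NRAS minus vehicle tumours (adjusted p = 0.0645), and Aurka (adjusted p = 0.0119) and Kif4 (adjusted p = 0.00329) passed in MEKi minus vehicle tumours. By other settings, Kif15 passed in -NRAS minus vehicle tumours with median centring (-0.22), quantile normalization (-0.19) and array weights (-0.22), and Smc2 lost its rise in MEKi minus vehicle tumours with its most variable probe set (0.33, adjusted p = 0.173). Cit lost calls with quantile normalization, a trended prior and the 2-arm fit. Aurka and Kif4 passed in MEKi minus vehicle tumours under 1 and 3 further settings. The cause of these changes was not tested. Dim genes, such as Kif14 and Kif15, are limited by their signal near the filter, and log2(intensity + 16) understates their changes.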
